A study of Mus musculus with 9 samples.

Results

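The genes described are 10 receptors through which T cells take up costimulatory or inhibitory signals: Icos, Cd28, Ctla4, Pdcd1, Lag3, Tigit, Havcr2, Cd160, Cd96 and Cd226. They were chosen by name and are 10 of the 14004 genes measured. RNA-seq was carried out on iNKT1 cells, the T-bet-expressing subset of invariant natural killer T cells, from the thymus, liver and spleen. There were 3 libraries per tissue and 9 in all. The mice were untreated C57BL/6 animals of genotype Tbx21CreTg;Rosa26-LSL-YFP+/+, and all 3 groups carried both alleles, so no group lacked the Cre or the reporter. In such mice a Cre transgene under Tbx21 control switches on YFP in cells that express, or have expressed, T-bet. Age, sex, the sort and any pooling of animals are not given in the sources used here. The series calls the replicates independent without saying whether they are separate animals, so p-values measure the spread between these samples. Unless stated otherwise, a value is a read count as normalised by the authors, and group values are means ± SD over 3 libraries (n = 3).

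A T cell responds to its antigen receptor together with a second signal. CD28 and ICOS deliver that signal after binding CD80 or CD86 and ICOS ligand, and CTLA-4 binds the ligands of CD28 more tightly and limits it. PD-1, LAG-3, TIGIT and TIM-3, the product of Havcr2, also restrain activated T cells, while CD226, CD96 and TIGIT share the ligand CD155, encoded by Pvr. In iNKT cells CD28 and ICOS are known to support development and survival.

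The 7 libraries in which whole reads could be recovered from the deposited values held between 18437666 and 37386788 reads. In liver replicate 3 the steps between low values were about 6.21 wide, against 0.683 to 1.26 for a read in those 7 libraries, so it was the shallowest. T cell and iNKT1 genes were present in every library, with Cd3e between 25652 and 46800, Zbtb16 between 1216 and 3305 and Tbx21 between 1386 and 5762. Ifng was at 24.3 in thymus replicate 2 and 1082 to 3029 elsewhere. The sum of 5 genes listed for the iNKT2 subset was 4072 to 7612 in thymus, 4603 to 5777 in liver and 6073 to 7940 in spleen. Of these, Il17rb was highest in thymus replicate 1 at 1772 and Ccr4 in thymus replicate 3 at 2549. The part of iNKT2 cells in these libraries was not tested. Genes listed as markers of other cells differed between tissues and libraries. Whether they came from other cells or from the iNKT1 cells themselves was not tested. The sum of 6 hepatocyte genes was 1350 to 1787 in liver, 0.121 to 270 in thymus and 0 to 15.5 in spleen, most of it Alb. That of 5 NK cell and ILC1 genes was 3977 to 8615 in thymus, 644 to 3350 in liver and 452 to 2284 in spleen. In thymus most of it was Fcer1g, at 6967, 3191 and 4117. Ncr1 of that list ran the other way, at 0.0439 or less in thymus and 13.7 to 616 in liver. The part of such cells in the tissue differences was not tested. Spleen replicate 1 stood apart for some B cell and myeloid genes. Its B cell genes Cd79a, Cd79b and Ms4a1 were at 625, 587 and 514, and its myeloid genes Csf1r and Adgre1 at 1297 and 405, while spleen replicate 2 had all of these at 0. Other myeloid genes did not single it out: Cd68 was at 1188 there and 1171 in liver replicate 1, Lyz2 was highest in liver replicate 3 at 404, and Itgax in thymus replicate 3 at 444. Liver replicate 1 held Cd79b at 144 and Ms4a1 at 423. Thymus replicate 3 held Rag1, a gene of immature thymocytes, at 486 against at most 0.815 elsewhere. Xist was at 84543 to 107736 in the library numbered 2 of each tissue, at 16531 in thymus replicate 3 and at 125 or less in the other 5.

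The 10 receptors fell into 5 abundant and 5 scarce genes. Dividing each value by the length of the gene's exons in kilobases allows levels of different genes to be compared. On that scale Cd28, Icos, Cd226, Cd160 and Cd96 held the 5 highest means in each tissue. Their single libraries lay between 558 and 4004 per kb in thymus, 1309 and 3278 in liver and 1475 and 3115 in spleen. The inhibitory receptors Ctla4, Pdcd1, Lag3, Tigit and Havcr2 reached at most 737 per kb in thymus, 489 in liver and 310 in spleen. Both sets overlapped in thymus, where Tigit in replicate 3 was above Cd160 in replicate 1, and did not overlap in liver or spleen.

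**Figure D1:**
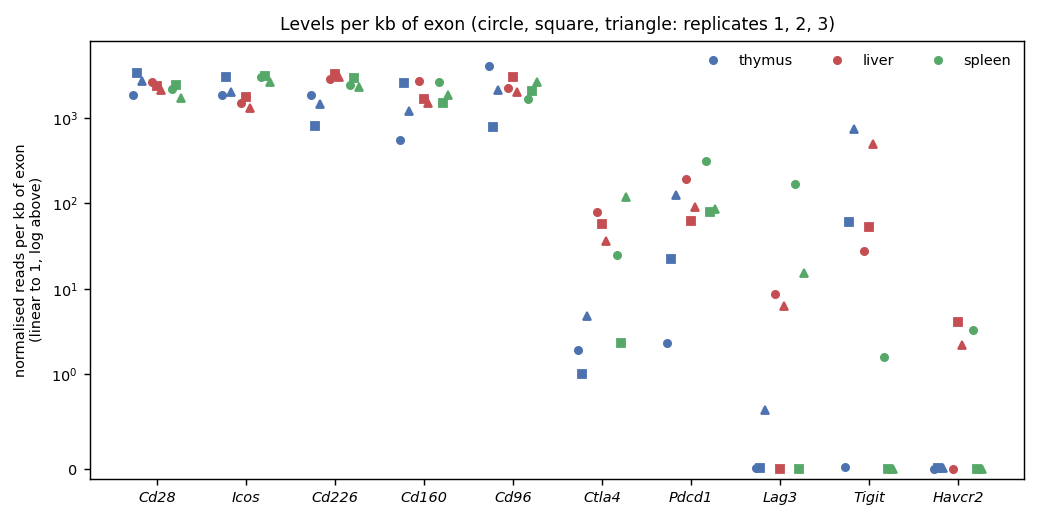
Normalised reads per kilobase of exon (vertical axis, linear up to 1 and logarithmic above) for the 10 receptor genes, with 1 point per library, colour for tissue and symbol for replicate number. In liver and spleen each library of Cd28, Icos, Cd226, Cd160 and Cd96 is above each library of the other genes, which spread over several orders of magnitude.

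The order among the abundant genes differed by tissue. In thymus it ran from Cd28 at 2654 ± 753 per kb through Cd96, Icos and Cd160 to Cd226 at 1371 ± 544, and neighbours in that order differed by less than the larger of their SDs. In liver Cd226 came first at 3033 ± 227 per kb and Icos, at 1521 ± 239, was the lowest of these 5. In spleen Icos came first at 2926 ± 268 per kb, ahead of Cd226 at 2581 ± 337, and their libraries overlapped. Among the scarce genes Tigit held the sixth place in thymus and liver and the last in spleen, where its mean was 0.524 ± 0.908 per kb.

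No receptor passed the test in any comparison of tissues. With limma-trend over all 13309 genes tested and Benjamini-Hochberg adjustment, 0 of the 10 had an adjusted p-value under 0.05 in liver vs thymus, where 0.323% of all genes did. The count was also 0 in spleen vs thymus, where 0.398% of all genes passed, and in liver vs spleen, where 0.015% did. An F-test of any tissue difference called 0 receptors and 0.346% of all genes. With so few genes called over the whole table, a count of 0 among 10 does not distinguish the receptors from other genes. At an unadjusted p under 0.05 there were 2, 1 and 2 receptors in the 3 pairwise comparisons, against 11.6%, 11.7% and 3.03% of all genes, and 3 in the F-test, against 9.95%. edgeR's quasi-likelihood test on the 7 libraries with recovered reads called 0 of 9 receptors in each comparison. Over 12795 genes it called only 5, 6 and 1 in the pairwise comparisons, so its 0 does not distinguish the receptors either. DESeq2 on the same libraries called 1 receptor, Tigit in spleen vs thymus, where it called 289 of 13275 genes. In liver vs thymus and liver vs spleen it called 0 receptors, with 286 and 74 of all genes. The median log2 difference over all genes was 0.29 in liver vs thymus and 0.33 in spleen vs thymus, and the receptors' differences are to be read against those values. Over the 10 receptors the medians were 1.26 and 0.84, and in liver vs spleen 0.19 against -0.02 for all genes. In liver vs thymus the differences above 1.26 were all those of the scarce genes, which had few or no reads in some or all thymus libraries. Both comparisons with thymus share the thymus libraries. In bulk samples such as these, fewer cells of a type and less RNA per cell cannot be told apart.

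**Figure D2:**
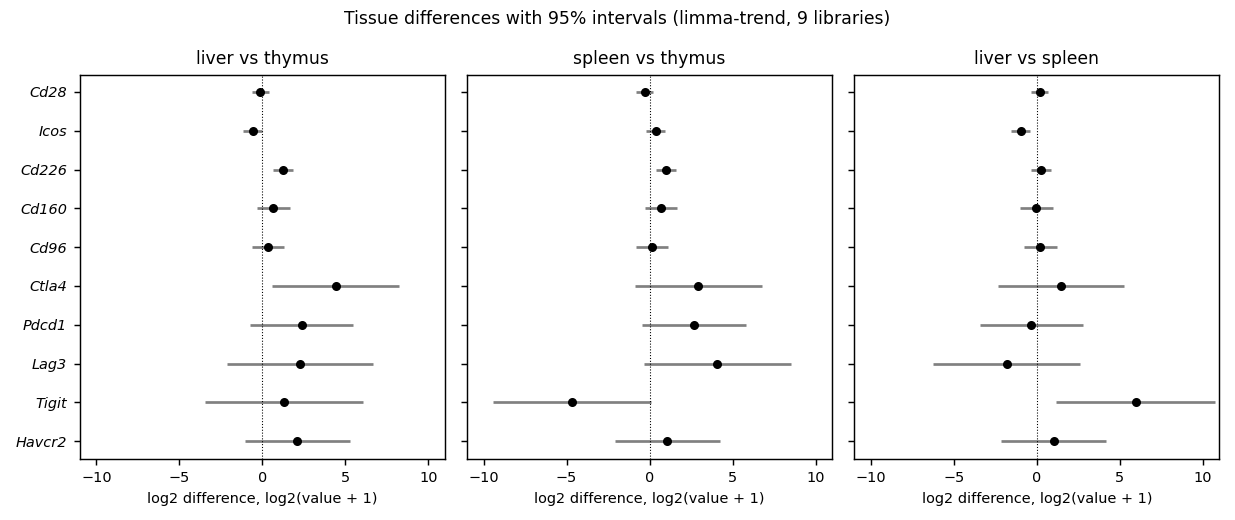
Log2 differences on the log2(value + 1) scale (horizontal axis) for the 10 receptors in the 3 pairwise comparisons, as points with 95% intervals from limma-trend over 9 libraries. The intervals of Cd28, Icos, Cd226, Cd160 and Cd96 are narrow, those of Ctla4, Pdcd1, Lag3, Tigit and Havcr2 span several log2 units, and none of the differences passed the adjusted threshold.

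Cd226 had the smallest adjusted p of the receptors in liver vs thymus and in spleen vs thymus. It encodes DNAM-1, an activating receptor for CD155 on T cells and NK cells, and lies on chromosome 18 from 89176967 to 89272229 (mm10, plus strand). It was at 9179, 3894 and 7038 in thymus replicates 1, 2 and 3, at 13845, 16033 and 14626 in the liver libraries and at 11989, 14493 and 11384 in the spleen libraries. Every liver and spleen library was therefore above every thymus library, while liver and spleen overlapped. By the means it was 2.21-fold higher in liver (14835 ± 1108) and 1.88-fold higher in spleen (12622 ± 1648) than in thymus (6704 ± 2659).

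The log2 difference of Cd226 was 1.23 in liver vs thymus (SE 0.29, 95% interval 0.62 to 1.84, limma-trend adjusted p 0.104). In spleen vs thymus it was 0.99 (SE 0.29, 95% interval 0.38 to 1.60, limma-trend adjusted p 0.187), and in liver vs spleen 0.24 (95% interval -0.37 to 0.85). In liver vs thymus it passed the threshold without thymus replicate 1, with a log2 difference of 1.5 (limma-trend adjusted p 0.0274), and with array weights at 1.23 (limma-trend adjusted p 0.0470), while over the 23 alternatives the adjusted p ran from 0.0274 to 0.748. Without thymus replicate 2 the differences were 0.88 in liver and 0.64 in spleen. Among the 6 libraries other than those with the highest Xist, numbered 2 in each tissue, the differences were 0.82 in liver and 0.54 in spleen. Without overlap of values, 2 of the 10 receptors (Cd226 and Ctla4) were higher in liver than thymus, against 9.61% of all genes, and 1 (Icos) was higher in thymus, against 5.73%. Between spleen and thymus, 1 was higher in spleen (Cd226), against 9.29%, and 0 in thymus, against 6.03%. Either way round, 15.3% of all genes did not overlap in each of these comparisons.

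**Figure D3:**
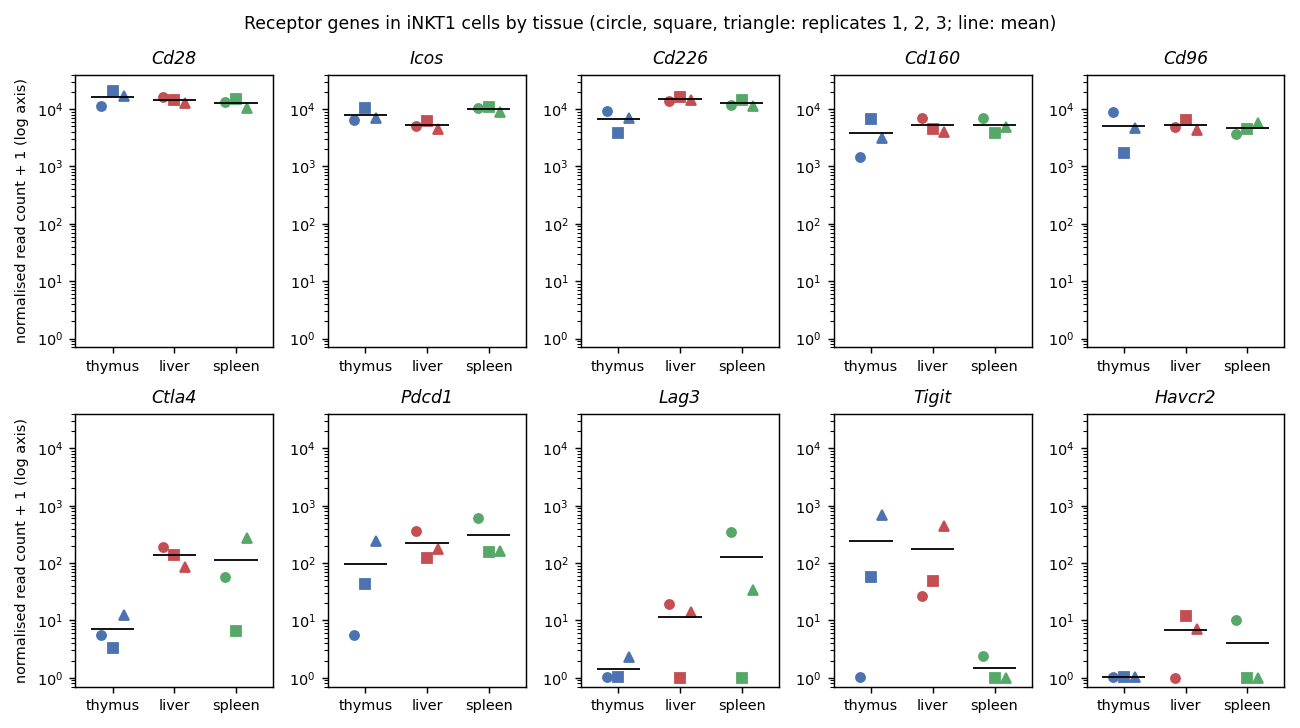
Normalised read count plus 1 (vertical axis, logarithmic) of each receptor in each of the 9 libraries, with the tissue on the horizontal axis, symbols for replicates 1 to 3 and lines at the tissue means. The 6 liver and spleen libraries of Cd226 lie above its 3 thymus libraries, Icos is lower in liver than in spleen, Ctla4 is near the bottom of the axis in thymus, and Tigit is there in spleen.

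Cd28, Ctla4 and Icos are neighbours on chromosome 1, on the plus strand of mm10. Cd28 spans 60716800 to 60773359, Ctla4 60887000 to 60915832 and Icos 60977927 to 61000320, with gaps of 114 kb and 62.1 kb between them.

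Icos, the inducible costimulator, had its lowest values in liver. It was at 6338, 10391 and 6882 in the thymus libraries, at 5059, 6104 and 4489 in the liver libraries and at 10434, 10685 and 8985 in the spleen libraries. No liver value reached any thymus or spleen value, while thymus and spleen overlapped through thymus replicate 2. By the means it was 1.92-fold higher in spleen (10035 ± 918) than in liver (5217 ± 819), and its values did not overlap. Icos was the 1 receptor of 10 higher in spleen without overlap, against 6.77% of all genes, and Tigit the 1 higher in liver, against 5.97%, with 12.7% of all genes in either direction. The log2 difference in liver vs spleen was -0.95 (SE 0.27, 95% interval -1.52 to -0.38, limma-trend adjusted p 1), and in liver vs thymus -0.57 (SE 0.27, 95% interval -1.14 to 0.00, limma-trend adjusted p 0.428). The latter was -0.35 without thymus replicate 2. The spread of Icos between replicates, a residual SD of 0.27 on the log2 scale, was the smallest of the 10 receptors. The median was 1.31 over all genes tested, but 0.55 over genes with high mean values, among which Icos lies.

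Cd28, the main costimulatory receptor of T cells, had the smallest range of the receptors over the 9 libraries. Its thymus libraries held 11447, 20638 and 16659, its liver libraries 16072, 14390 and 12943 and its spleen libraries 13361, 15013 and 10403. The 3 tissues overlapped, and the highest library was 1.98-fold above the lowest. The log2 differences were -0.13 in liver vs thymus (95% interval -0.65 to 0.39), -0.31 in spleen vs thymus (-0.83 to 0.22) and 0.17 in liver vs spleen (-0.35 to 0.69). The sign in liver vs thymus depended on the scaling, since equal library totals gave 0.017, and without thymus replicate 2 it was 0.062.

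Ctla4, the inhibitory counterpart of Cd28, was scarce. In thymus it was at 4.51, 2.35 and 11.3, which are 4, 2 and 9 reads. In liver it was at 186, 135 and 84.1, and in spleen at 57.4, 5.43 and 275. Each liver library was above each thymus library, and the spleen libraries ran from within the thymus range to above the liver range. The log2 difference in liver vs thymus was 4.41 (SE 1.80, 95% interval 0.58 to 8.23, limma-trend adjusted p 0.363), and in spleen vs thymus 2.94 (SE 1.80, 95% interval -0.88 to 6.76, limma-trend adjusted p 0.542). The latter was 1.67 without spleen replicate 3 and 4.38 without spleen replicate 2. Regulatory T cells express Ctla4 strongly. Foxp3 was not analysed here, and the sum of the 3 other regulatory T cell genes (Il2ra, Ikzf2 and Ikzf4) was 4764 to 13546 in thymus, 7480 to 9302 in liver and 10868 to 15761 in spleen. The genes of that list differed in pattern. Ikzf4 was at 0.0212, 0.0273 and 13.8 in thymus, 55.6 to 171 in liver and 31.3 to 380 in spleen, whereas Ikzf2 was at 4844, 2515 and 7335 in thymus, 1376 to 3273 in liver and 7873 to 10787 in spleen. Spleen replicate 3 was highest for Ctla4 and Ikzf4, and spleen replicate 2, where Ctla4 was lowest, was highest for Ikzf2. The part of such cells in the result was not tested.

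Set against Cd28 in the same library, Ctla4 was at a log2 ratio of -11.34 ± 1.13 in thymus, -6.80 ± 0.42 in liver and -8.09 ± 2.98 in spleen (n = 3 each). The liver ratios of -6.42, -6.73 and -7.25 were above the thymus ratios of -11.02, -12.59 and -10.40 without overlap. In the spleen the ratio ran from -11.19 in replicate 2 to -5.24 in replicate 3, which reaches into both other tissues.

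CD226, TIGIT and CD96 compete for CD155. Tigit and Cd96 both lie on the minus strand of chromosome 16 (mm10), Tigit from 43648867 to 43664146 and Cd96 from 46035657 to 46120251. The sequences before the RefSeq starts of Tigit and Ctla4, the receptors with the largest log2 differences between tissues, are shown beside that of Cd96, which was abundant in all 3. Each is the 250 bases before the gene's start in RefSeq (GRCm38.p6), 5′ to 3′ on the gene's strand. Capitals mark matches on either strand to TCACAC (a T-box core), GGAAAA (an NFAT core), TGANTCA (AP-1) or TGTGGT (RUNX). The window of Ctla4 ends at the RefSeq start but lies within the GENCODE span given above, which begins further upstream with a transcript that GENCODE does not class as coding. The RefSeq start of Tigit lies a short way upstream of the GENCODE one. The windows are chr16:43664185-43664434 for Tigit, chr16:46120249-46120498 for Cd96 (both minus strand) and chr1:60908775-60909024 for Ctla4 (plus strand).
Tigit: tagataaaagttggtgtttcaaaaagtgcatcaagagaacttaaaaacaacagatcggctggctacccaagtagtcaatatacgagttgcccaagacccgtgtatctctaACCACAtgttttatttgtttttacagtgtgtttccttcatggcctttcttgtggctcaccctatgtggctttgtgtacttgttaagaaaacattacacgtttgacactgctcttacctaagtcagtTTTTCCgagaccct
Cd96: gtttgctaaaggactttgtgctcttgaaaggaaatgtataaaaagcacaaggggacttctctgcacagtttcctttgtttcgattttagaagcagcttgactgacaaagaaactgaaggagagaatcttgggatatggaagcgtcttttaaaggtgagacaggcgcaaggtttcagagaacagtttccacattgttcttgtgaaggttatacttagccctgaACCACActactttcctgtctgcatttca
Ctla4: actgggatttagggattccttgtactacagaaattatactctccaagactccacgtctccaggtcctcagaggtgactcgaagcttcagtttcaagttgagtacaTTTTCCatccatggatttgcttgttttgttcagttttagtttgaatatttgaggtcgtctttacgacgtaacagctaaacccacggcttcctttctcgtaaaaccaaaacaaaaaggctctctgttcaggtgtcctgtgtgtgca
Tigit and Ctla4 each held 1 match to the NFAT core, as did 20.4% of 32851 RefSeq promoter windows of this length, and Tigit and Cd96 each held 1 match to the RUNX core, as did 14.0%. The T-box core, present in 12.3%, and the AP-1 motif, present in 6.75%, were not found as these letters in the 3 windows. A match describes letters, not binding.

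The inhibitory receptor Tigit had the widest spread of the 10, with a residual SD of 3.03 on the log2 scale. The median was 1.31 over all genes, but 2.25 over genes with low mean values, among which Tigit lies. In thymus it was at 0.0213, 55.5 and 677, in liver at 25.2, 48.0 and 449 and in spleen at 1.45, 0.00 and 0.00. Spleen replicate 1 held 2 reads and spleen replicate 2 none. Every liver library was above every spleen library, but thymus replicate 1 also had no read, so thymus and spleen overlapped.

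The log2 difference of Tigit in liver vs spleen was 5.95 (SE 2.24, 95% interval 1.19 to 10.72, limma-trend adjusted p 1), and in spleen vs thymus -4.66 (SE 2.24, 95% interval -9.42 to 0.11, limma-trend adjusted p 0.438). With values at or near 0 these differences depend on the pseudocount and give no bound on a fold. DESeq2 on the 7 libraries gave -8.39 in spleen vs thymus (adjusted p 0.0411), while over the 23 alternatives the adjusted p ran from 0.0411 to 0.802. In liver vs thymus the direction was not settled. The fitted difference was 1.30, while the means ran the other way, at 174 ± 238 in liver and 244 ± 376 in thymus. It was -1.23 without thymus replicate 1, and edgeR and DESeq2 on 7 libraries gave -2.72 and -2.76. In spleen vs thymus the difference was -7.18 without thymus replicate 1 and -2.50 without thymus replicate 3. Thymus replicate 3, the highest library for Tigit, was also the one that held Rag1. The 4 immature thymocyte genes measured summed to 1512 there, and to 2596 and 7393 in the other thymus libraries, of which Cd4 made up 985, 2580 and 7393. Cd4 was also at 6440 to 7921 in liver and 5468 to 10054 in spleen, so these sums mainly reflect Cd4 and not immature thymocytes. Dntt of that list was at 11.3 in thymus replicate 3 and 0.631 or less elsewhere. Cd8b1 was highest in liver replicate 1, at 40.9 against 28.9 in thymus replicate 3. The part of immature thymocytes in the result was not tested.

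Cd96, a receptor for CD155 described as inhibitory in NK cells and as costimulatory in T cells, was abundant in every library. It was at 8745, 1692 and 4675 in thymus, at 4950, 6556 and 4343 in liver and at 3624, 4472 and 5730 in spleen. The thymus libraries alone spanned the whole range, 5.17-fold, and the other libraries lay within it. The log2 differences were 0.34 in liver vs thymus (95% interval -0.65 to 1.33), 0.14 in spleen vs thymus (-0.85 to 1.13) and 0.20 in liver vs spleen (-0.79 to 1.19). Without thymus replicate 2, the lowest library, both thymus comparisons changed sign, to -0.30 in liver and -0.50 in spleen.

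Per kb, Tigit was below Cd226 in all 9 libraries, and nearest to it in thymus replicate 3, at 737 against 1439. To compare libraries, ratios of normalised counts without the length term were taken. The log2 ratio of Tigit to Cd226 was -13.13, -6.11 and -3.38 in thymus, -9.05, -8.35 and -5.02 in liver and -12.26, -13.82 and -13.47 in spleen. The spleen ratios lay below each liver ratio, and thymus replicate 1 lay among the spleen ratios. The log2 ratio of Cd96 to Cd226 was -0.62 ± 0.57 in thymus, -1.51 ± 0.23 in liver and -1.47 ± 0.42 in spleen, and thymus overlapped with spleen. These ratios compare libraries and not the levels of both genes. Per kb, the mean of Cd96 was above that of Cd226 in thymus (2307 against 1371) and below it in liver (2419 against 3033) and spleen (2110 against 2581).

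**Figure D4:**
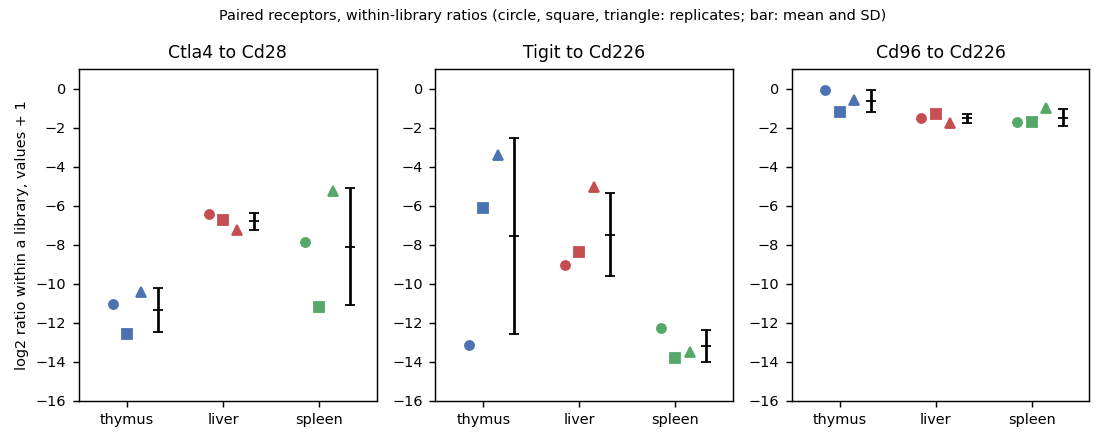
Within-library log2 ratios of normalised read counts plus 1 (vertical axis) for Ctla4 to Cd28, Tigit to Cd226 and Cd96 to Cd226 by tissue, with symbols for replicates and bars for mean and SD (n = 3). Ctla4 to Cd28 is higher in each liver library than in each thymus library, Tigit to Cd226 is lowest in spleen and in thymus replicate 1, and Cd96 to Cd226 stays within -1.75 to -0.07.

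Pdcd1, which encodes PD-1, was low in every tissue (chromosome 1, 94038305 to 94052553, minus strand of mm10). It was at 4.51, 42.8 and 239 in thymus, at 368, 120 and 176 in liver and at 599, 153 and 165 in spleen. The means of 95.6 ± 126, 221 ± 130 and 306 ± 254 differed by less than the largest of their SDs, and thymus replicate 3 lay within the range of the other tissues. The log2 difference was 2.36 in liver vs thymus (SE 1.47, 95% interval -0.76 to 5.49, limma-trend adjusted p 0.545) and 2.68 in spleen vs thymus (SE 1.47, 95% interval -0.44 to 5.81, limma-trend adjusted p 0.492). Both rested on the thymus libraries: without thymus replicate 1 they were 0.96 and 1.28, and without thymus replicate 3 they were 3.68 and 4.

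Lag3, a receptor for MHC class II, lies on chromosome 6 from 124904361 to 124911705 (mm10, minus strand). It was at 0.0207, 0.0268 and 1.31 in thymus, which is 1 read in all, at 18.2, 0.00 and 13.2 in liver and at 354, 0.00 and 32.4 in spleen. Spleen replicate 1 was far above every other library, and spleen and liver replicates 2 had none. The log2 difference in spleen vs thymus was 4.09 (SE 2.07, 95% interval -0.33 to 8.5, limma-trend adjusted p 0.461), while it was 2.11 without spleen replicate 1 and 6.34 without spleen replicate 2. Spleen replicate 1 was the highest library for both Lag3 and Pdcd1, and it was the one with the B cell and myeloid genes given above. Its sum over 6 myeloid genes was 3044, against 98.2 and 169 in the other spleen libraries, 26.5 to 1597 in liver and 16.4 to 543 in thymus. Its sum over 4 B cell genes was 10727, of which Ighm made up 9002, against 5260 and 9301 in the other spleen libraries, 5403 to 7916 in liver and 3157 to 5351 in thymus. Ighm made up all of the 5260 in spleen replicate 2 and 9283 of the 9301 in spleen replicate 3. In thymus Ighm was at 3157 to 5350, with Cd79a, Cd79b and Ms4a1 at 0.0443 or less. The sum of 3 follicular helper type genes (Bcl6, Cxcr5 and Il21) was also highest in spleen replicate 1, at 1706. It was 931 and 402 in the other spleen libraries, 42.6 to 1019 in liver and 266 to 809 in thymus. Il21 of that list was highest in spleen replicate 3, at 149 against 131 in spleen replicate 1. The part of B cells, myeloid cells or follicular helper type cells in the result was not tested.

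Havcr2 was hardly detected (chromosome 11, 46454935 to 46481255, plus strand of mm10). In thymus it was at 0.0180, 0.0232 and 0.0372, which is 0 reads. In liver it was at 0.00, 11.2 and 6.05, and in spleen at 9.01, 0.00 and 0.00. The reads came to 13 in liver replicate 2 and 12 in spleen replicate 1, and the value in liver replicate 3 is about that of a single read there. At this depth no difference in Havcr2 was detectable. All 10 receptors passed the filter on low values, Havcr2 through these 3 libraries.

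Cd160, which binds the TNF receptor family member HVEM and has been described with both activating and inhibitory functions, lies on chromosome 3 from 96798763 to 96829351 (mm10, minus strand). It was at 1474, 6826 and 3154 in thymus, at 7092, 4440 and 3998 in liver and at 6935, 3897 and 4906 in spleen. The tissues overlapped, and thymus replicate 1 was the lowest library. The log2 difference was 0.66 in liver vs thymus (95% interval -0.33 to 1.65), 0.69 in spleen vs thymus (-0.30 to 1.68) and -0.02 in liver vs spleen (-1.01 to 0.96). Without thymus replicate 1 the differences from thymus were 0.11 in liver and 0.14 in spleen, and without thymus replicate 2 they were 1.22 and 1.24. Exons of Cd160 share 68 bases with Pdzk1 on the opposite strand. Whether the counting used strand is not given in the sources used here, and Pdzk1 was at 19.7 or less in every library.

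Of 12 genes for ligands of these receptors 9 could be tested, and 0 passed the adjusted threshold in any pairwise comparison with limma-trend, or with edgeR or DESeq2 on 7 libraries. With limma-trend 0.323%, 0.398% and 0.015% of all genes passed in liver vs thymus, spleen vs thymus and liver vs spleen. At an unadjusted p under 0.05 it gave 5, 4 and 0 ligand genes, against 11.6%, 11.7% and 3.03% of all genes. Pvr, which encodes CD155, averaged 4919 ± 1335 in the thymus libraries, 1954 ± 572 in the liver libraries and 2682 ± 601 in the spleen libraries, and the lowest thymus library, at 3480, lay above the highest of the others, at 3306. Lgals9, which encodes a ligand of TIM-3, was at 2450 ± 815, 5592 ± 247 and 3832 ± 1125 in the same order, without overlap between thymus and the other tissues. Of 15 related receptors tested, 0 passed with limma-trend or edgeR, with 2, 5 and 3 at an unadjusted p under 0.05 in limma-trend, against the same shares of all genes. DESeq2 on 7 libraries called Cd101 in both thymus comparisons and Cd244a in spleen vs thymus, each higher in thymus. Of all 13275 genes it called 286 in liver vs thymus and 289 in spleen vs thymus.

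Of 21 signalling and trafficking partners, 1 fell in liver vs thymus and in spleen vs thymus, where 0.323% and 0.398% of all genes passed. In liver vs spleen 0 changed, and edgeR and DESeq2 called 0. At an unadjusted p under 0.05 there were 3, 4 and 1 (limma-trend), against 11.6%, 11.7% and 3.03% of all genes. The partner that fell was Ptpn6, which encodes the phosphatase SHP-1 that acts downstream of several inhibitory receptors. Ptpn6 was at 16256, 12081 and 10409 in thymus, at 4229, 3444 and 3829 in liver and at 3417, 1692 and 2319 in spleen, so the thymus values stood above all others. The summed level of NK cell and ILC1 genes given above, in thymus mostly Fcer1g, was also highest there. Ncr1 and Tyrobp of that list were not highest in thymus. Whether the genes of that list came from NK cells and ILC1 or from the iNKT1 cells was not tested. The part of NK cells and ILC1 in the result was not tested either. The log2 difference of Ptpn6 was -1.73 in liver vs thymus (SE 0.32, limma-trend adjusted p 0.0292) and -2.42 in spleen vs thymus (SE 0.32, limma-trend adjusted p 0.00331). DESeq2 on 7 libraries called both, among 286 and 289 of 13275 genes, and edgeR neither. The call in liver was lost without thymus replicate 1 (limma-trend adjusted p 0.0769), thymus replicate 2 (0.0523), spleen replicate 3 (0.0506) and liver replicates 1, 2 or 3 (0.121, 0.188 and 0.183), within a range of 0.0154 to 0.340 over all alternatives. The call in spleen was kept whichever library was left out.

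Of 13 transcription factors known to act on these receptor genes, 2 rose in liver and in spleen relative to thymus, against calls of 0.323% and 0.398% of all genes. At an unadjusted p under 0.05 there were 5 and 4 (limma-trend), against 11.6% and 11.7%. The 2 genes were Irf4 and Nr4a3, both induced by antigen receptor signals. Irf4 was at 0.0213, 1.18 and 127 in thymus, at 2578, 887 and 1784 in liver and at 3137, 1643 and 1177 in spleen. Nr4a3 was at 88.6, 32.4 and 15.1 in thymus, at 833, 913 and 897 in liver and at 6347, 1765 and 1717 in spleen. For both genes the thymus libraries were below all others.

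The log2 differences of Irf4 were 7.93 in liver (SE 1.43, limma-trend adjusted p 0.0261) and 8.12 in spleen (SE 1.43, limma-trend adjusted p 0.0195), and those of Nr4a3 were 4.60 (SE 0.84, limma-trend adjusted p 0.0267) and 6.20 (SE 0.84, limma-trend adjusted p 0.00334). On 7 libraries DESeq2 called Nr4a3 in both comparisons and edgeR in spleen, and neither called Irf4. Over all genes DESeq2 called 286 and 289 of 13275 in liver vs thymus and spleen vs thymus, and edgeR 5 and 6 of 12795. DESeq2 also called Nr4a1 higher in both, which did not pass with limma-trend (limma-trend adjusted p 0.198 in liver and 0.0507 in spleen). Nr4a1 was at 0.0212, 0.0274 and 13.8 in thymus, at 251, 102 and 79.9 in liver and at 884, 816 and 281 in spleen. Leaving out 1 library lost the liver call of Irf4 without thymus replicate 2, any liver library or any spleen library (limma-trend adjusted p 0.0506 to 0.195), and its spleen call without liver replicate 1 or 3 or any spleen library (0.0503 to 0.157). The liver call of Nr4a3 was lost without any liver or any spleen library (0.0663 to 0.183), and its spleen call without spleen replicate 1 (0.0599).

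For each receptor the most similar gene over the 9 libraries was sought among 8857 or fewer named genes with a mean of at least 100. The Pearson correlation on log2(value + 1) was highest for Cd226 with Ifit1bl1 (0.98), Pdcd1 with Rp2 (0.97), Cd160 with Cwc27 (0.96), Cd96 with Idh2 (0.96) and Cd28 with Zer1 (0.95). It was 0.94 for Ctla4 with Dyrk1b, 0.94 for Tigit with Eri2, 0.93 for Lag3 with H2-Aa, 0.92 for Icos with Zbtb2 and 0.92 for Havcr2 with Dock10. Each is the highest of a large number of correlations over 9 libraries that share tissues and depth, so it is a description. H2-Aa encodes a chain of MHC class II, the ligand of LAG-3, and is made by B cells and myeloid cells. It was at 973 in spleen replicate 1, 381 in spleen replicate 3 and 122 or less in the other 7 libraries, so its highest library was also that of Lag3.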

How the data were processed

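Per the submitters' processing notes, Trimmomatic 0.33, TopHat2 2.1.0, HTSeq 0.6.1 and edgeR were used with build mm10; their settings are not given in the sources used here. The authors' deposited values are a signal, normalised read counts that are not whole numbers, 1 per gene and library. Columns were matched to libraries by tissue and replicate number, and 13359 of 14004 gene identifiers had a symbol. Gene positions and exon lengths came from the GENCODE annotation of mm10.

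Because the values are not counts, limma-trend (limma 3.58.1, R 4.3.3) on log2(value + 1) was fitted to all 9 libraries with a term per tissue, over the 13309 genes that reached a value of 1 in 3 or more libraries. Tests are two-sided, and adjusted p-values (Benjamini-Hochberg) under 0.05 count as calls. The pseudocount pulls fold changes of low genes toward 0, and where replicates spread widely a difference of mean log2 values can differ in size and sign from the ratio of the group means. The fit was also run on simulated counts with a spread setting shared by all genes. That run does not show how the fit handles scarce genes with widely spread replicates.

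In 7 libraries at least 97.7% of the low values were within 0.1 of a whole number of reads, and edgeR 4.0.16 and DESeq2 1.42.0 were run on those reads, an alternative added after seeing the data; the planned count tests on 9 libraries were not run. Read numbers cover counting error only. The receptors and gene lists were chosen with earlier results of these data known. All 10 receptors are named, with up to 4 genes of each list past the threshold and the gene most correlated with each receptor. Pvr, Lgals9, Cd101, Cd244a, Nr4a1 and the single markers were chosen after their values were seen. Some listed marker genes are not reported here and were left out of the summed levels.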

Additional observations from a re-analysis of the deposited data

How the results depend on the processing

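The number of receptors past the threshold stayed at 0 in each of the 23 alternatives in liver vs spleen, in 21 of 23 in liver vs thymus, in 22 of 23 in spleen vs thymus and in 22 of 22 in the F-test. The exceptions in liver vs thymus were array weights and the fit without thymus replicate 1, each with 1 receptor, Cd226, so the fits that left out 1 library ran from 0 to 1. In spleen vs thymus, DESeq2 on 7 libraries gave 1, Tigit. Over all genes the counts ran from 5 to 286 in liver vs thymus (43 in the report), 4 to 289 in spleen vs thymus (53), 0 to 74 in liver vs spleen (2) and 6 to 164 in the F-test (46), each highest with DESeq2. In spleen vs thymus, 25 genes were higher and 28 lower, and with equal library totals 22 and 16. Equal library totals moved the median of all genes from 0.29 to 0.43 in liver vs thymus and from 0.33 to 0.48 in spleen vs thymus, and edgeR's scaling on 7 libraries to -0.05 and -0.04.

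With the replicate block, 0 receptors passed in any comparison (Cd226 in liver vs thymus: log2 difference 1.23, limma-trend adjusted p 0.125), and the calls of Ptpn6, Irf4 and Nr4a3 did not change. With a term for the high-Xist libraries, numbered 2 in each tissue, these calls were also kept. Without those libraries, and so with fewer per tissue, the liver calls were lost (limma-trend adjusted p 0.296, 0.296 and 0.308), as was the spleen call of Irf4 (0.237). The liver log2 differences were then -1.69, 7.55 and 4.51, against -1.73, 7.93 and 4.60 with all libraries. With only the 6 samples compared, the lost calls were those of Ptpn6 in liver (0.0506), Irf4 in liver and spleen (0.228 and 0.179) and Nr4a3 in both (0.288 and 0.0558). The labels do not tie equal replicate numbers to an animal or batch. Deviations of same-numbered libraries from different tissues correlated at -0.0007 to 0.0891, and those of differently numbered libraries at -0.0866 to 0.0484. Whether the numbers mark a pairing was not tested.

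Of 30 pairwise log2 differences of receptors, 8 changed sign in some alternative, none of them past the threshold there, and the cause was not tested. Cd28 in liver vs thymus was 0.017 and 0.038 with equal totals of all and of nuclear genes and 0.063 without the high-Xist libraries, which also gave -0.0071 for Ctla4 in liver vs spleen, -0.46 for Cd96 in liver vs thymus and -0.49 in spleen vs thymus. On 7 libraries, limma-trend, edgeR and DESeq2 gave 0.11, 0.091 and 0.097 for Cd160 in liver vs spleen and -0.028, -0.31 and -0.37 for Cd96 in spleen vs thymus, and edgeR and DESeq2 gave -2.72 and -2.76 for Tigit in liver vs thymus. Leaving out 1 library gave -0.36 to 0.062 for Cd28, -1.23 to 3.45 for Tigit and -0.30 to 0.89 for Cd96 in liver vs thymus, -0.50 to 0.69 for Cd96 in spleen vs thymus, and -0.76 to 0.32 for Pdcd1, -4.07 to 0.17 for Lag3 and -0.28 to 0.20 for Cd160 in liver vs spleen. With a pseudocount of 8 the log2 ratio of Ctla4 to Cd28 in thymus was -10.18 and that of Tigit to Cd226 in spleen -10.54. Havcr2 could be tested in 14 to 16 of the 23 alternatives. The shallow liver replicate 3 and the few reads of Lag3, Havcr2 and thymic Ctla4 limit what could be detected.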
